A study of Arabidopsis thaliana with 12 samples.

Results

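The chloroplast genome of Arabidopsis thaliana carries, beside its photosynthesis genes, a set of genes for its own gene expression and for a few other tasks: ribosomal proteins (rps, rpl), RNA polymerase subunits (rpo), and the genes matK, clpP, accD, ccsA, cemA, ycf3 and ycf4. These genes were taken as all array probe sets paired with exactly 1 plastid-encoded gene whose symbol does not begin with psa, psb, pet, atp or ndh and is not rbcL. The rule used gene names and no measured value, but the set was chosen with earlier results of these data known. It gave 26 genes of the 69 plastid genes that have such a probe set, with 1 probe set each, on an array of 22810 probe sets that name 13356 genes on their own. The other 43 are photosynthesis genes. Among further non-photosynthesis genes, rps12, rps7, rpl2, rpl23, ycf1 and ycf2 are paired only with probe sets of several genes and were not analysed here. A signal could be tested for 25 of the 26. The exception, rps14, a 30S ribosomal protein gene, gave signals of 20.5 to 77.9 over the 12 arrays, with a mean of 38.9, and was under the filter level of 47.4.

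Whole plants of the Col-0 ecotype, 7 days old and grown in shaken liquid medium at 21 °C in continuous light, were measured on 12 arrays, 3 in each of 4 groups. The mock group was given DMSO, the solvent. The L-AOPP group was exposed for 3 h to 50 µM of L-AOPP, an aminooxy compound that the study employs to block auxin biosynthesis. The remaining groups received the same inhibitor and, 1 h after it, either 1 µM of the auxin IAA or its precursor IPyA (indole-3-pyruvic acid), so that IAA or IPyA acted for 2 h and every group but mock carried L-AOPP. The IPyA dose is given as 100 µM in the sample descriptions and the series design and as 0.1 µM in the treatment protocol, and it is not settled here. No genotype other than the ecotype is named, and nothing states whether replicates were cultured separately, so p-values describe the spread of these samples alone and that spread may be technical. Precision is limited throughout by having 3 arrays a group.

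Plastid genes are read by a bacterial-type RNA polymerase, whose core subunits are encoded in the plastid itself by rpoA, rpoB, rpoC1 and rpoC2, and by a phage-type polymerase encoded in the nucleus. The phage-type enzyme is the main one for accD and for the rpoB operon, which holds rpoB, rpoC1 and rpoC2. Plastid messages are translated on bacterial-type ribosomes that combine plastid-encoded and nucleus-encoded proteins. Many plastid genes are co-transcribed, so genes of 1 operon can share a transcript and are not independent measurements. Plastid transcripts carry no long stable poly(A) tails, and the sources used here do not say how the labelled cRNA was primed.

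The arrays differed more by replicate number than by treatment. In these 25 genes the replicate number took 61.7% of the variance, the group 21.2% and neither of them 17.2%, compared with 53.3%, 23.4% and 23.3% over all 15922 probe sets tested. Over all probe sets, the deviations of arrays sharing a replicate number were correlated, so each comparison is given within replicate pairs as well, in a fit that has the replicate number as a block (the paired fit). Replicate 1 stood apart in these genes. It was the lowest array of its group for 17 of the 25 genes in mock, 16 with L-AOPP, 22 with L-AOPP+IAA and 23 with L-AOPP+IPyA, and for 12 genes it was the lowest in all 4 groups. Against the mean of replicates 2 and 3, averaged over the groups, replicate 1 was lowest in rpl36 (-1.28 on the log2 scale), rpl22 (-0.98) and rpl14 (-0.98), all of the operon that runs from the S10 ribosomal protein genes to rpoA. matK went the other way and was highest in replicate 1 in all 4 groups (0.27). The 42 tested photosynthesis genes were split between replicates 1 and 3: replicate 1 was lowest for 21 in mock, 7 with L-AOPP, 15 with L-AOPP+IAA and 21 with L-AOPP+IPyA, and replicate 3 for 20, 29, 24 and 19. The median gap between the highest and lowest array of a group was 0.30 in mock, 0.40 with L-AOPP, 0.80 with L-AOPP+IAA and 0.93 with L-AOPP+IPyA (log2).

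**Figure D1:**
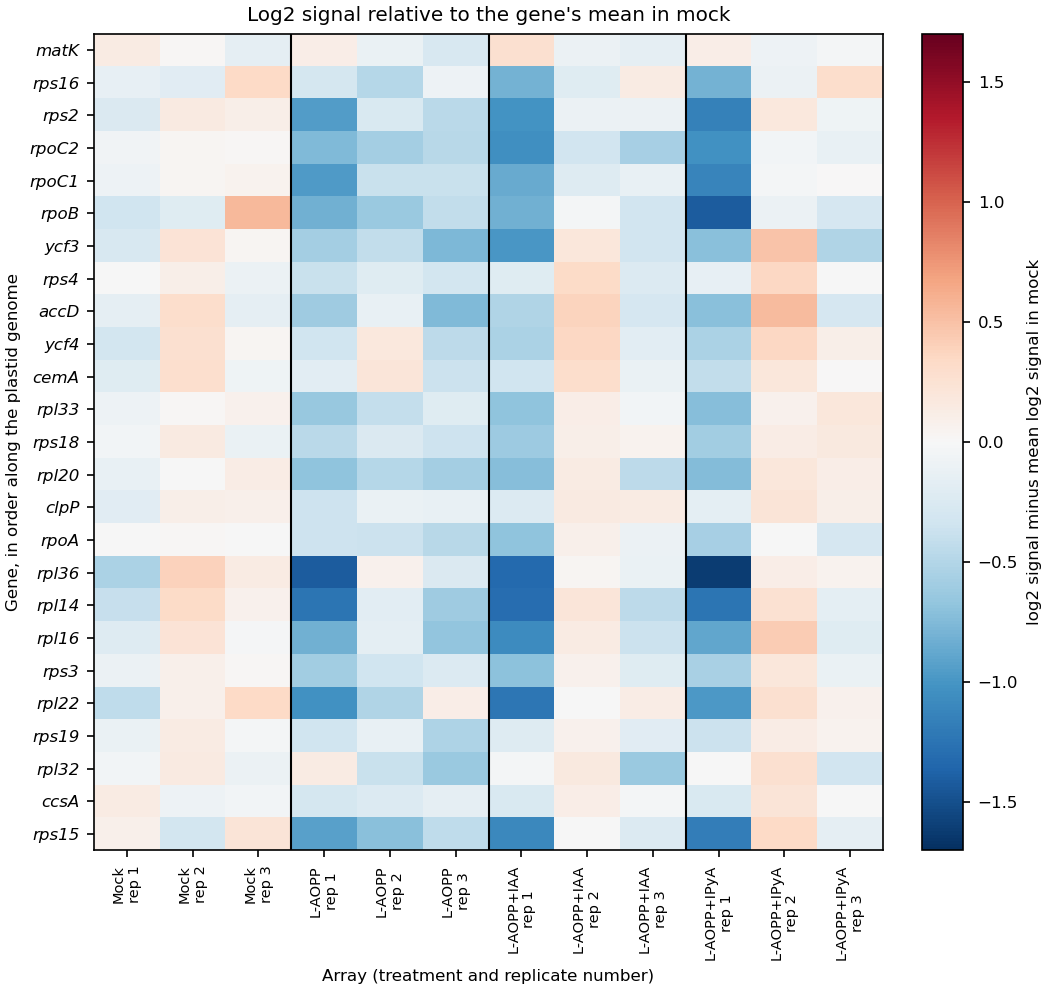
Log2 signal of the 25 tested plastid genes (rows, in order along the plastid genome) on the 12 arrays (columns, by treatment and replicate), with each gene's mean in mock subtracted; blue is lower and red is higher. The L-AOPP arrays are blue for most genes, and with L-AOPP+IAA and L-AOPP+IPyA replicate 1 is the lowest array for 22 and 23 of the 25 genes.

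Markers of green tissue and of root were both above the filter level in these whole plants. The lists held 21 green shoot and 16 root symbols, some of them second names of a gene. The 2 green shoot markers with a named probe set, RCA and LHCB4.1, summed to 32583 to 37840 in mock, 34336 to 39679 with L-AOPP, 32732 to 41793 with L-AOPP+IAA and 34145 to 42965 with L-AOPP+IPyA. The 3 root markers with a named probe set, PYK10, EXPA7 and EXPA18, summed to 17410 to 25565, 18661 to 24694, 19286 to 24808 and 19855 to 24395 in the same order, and none of the 5 markers was at 0. PYK10 made most of the root sum, at 18853 ± 3103 in mock (SD, n = 3). EXPA7 and EXPA18 were uneven between arrays, at 836 ± 947 and 613 ± 516 in mock and 982 ± 535 and 819 ± 302 with L-AOPP. With L-AOPP, RCA differed from mock by 0.04, LHCB4.1 by 0.05 and PYK10 by 0.03 (log2), and EXPA7 and EXPA18, both of root hairs, by 0.72 and 0.67. Against L-AOPP, EXPA7 differed by -0.42 with IAA and -0.62 with IPyA, and EXPA18 by -0.69 (paired adjusted p = 0.0507) and -0.60, so both lay on the other side of 0. None of the 5 markers was called in either fit of these comparisons. The GAPDH control's 3'/5' signal ratio, a sign of RNA integrity, was 1.40, 1.32 and 1.23 in mock, and 1.34, 1.27 and 1.15 with L-AOPP, lower in each pair. It was 1.27, 1.41 and 1.17 with L-AOPP+IAA, and 1.44, 1.51 and 1.12 with L-AOPP+IPyA. The ubiquitin ratio was 2.28, 2.18 and 2.07 in mock and 2.33, 2.07 and 2.16 with L-AOPP, and the actin ratio 10.004, 12.3 and 12.9 in mock and 7.77, 13.4 and 13.0 with L-AOPP, so neither moved one way in all pairs. The part of root hair genes and of these ratios in the results was not tested.

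Plants given L-AOPP alone were set against mock plants to see how these transcripts stood after 3 h of the inhibitor. All 25 genes had a lower mean log2 signal with L-AOPP than in mock, with a median difference of -0.42 and a range from -0.69 (rps15) to -0.09 (matK). Over all probe sets tested the median was 0.01, and 47.1% lay below 0. The genes were lower in 3 of 3 replicate pairs for 23 of 25, against 15.0% of all probe sets tested. The exceptions were cemA and rpl32, which were higher in pair 1 by 0.03 and 0.19. The median over the genes was -0.46, -0.40 and -0.46 in pairs 1, 2 and 3, so each pair gave a like value. For 14 genes every L-AOPP array was below every mock array, against 3.77% of all probe sets. In whole plants, fewer plastids or fewer cells of a type cannot be told apart from less RNA per plastid or cell.

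Without pairing, limma called 0 of the 25 (0% of all probe sets were called lower), and 2 genes, rpoC2 and rpl20, had an unadjusted p under 0.05, against 1.92% of all probe sets. In the paired fit 1 gene was called, rpl14, against 0.421% of all probe sets. There 20 of the 25 had an unadjusted p under 0.05 and were lower, against 6.80%. Without replicate 1 the paired fit, then with 2 pairs, called 9: rpl14, rps2, rps19, rpl16, rpoA, rpoC1, rpoC2, accD and ycf3. Over the whole array that fit called 329 probe sets in either direction, against 92 with all 3 replicates. Without replicate 2 or replicate 3 the paired fit called 0 of the 25 (0 and 6 probe sets over the array). The median of the 25 genes lay between -0.44 and -0.41 in the fits without 1 replicate.

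**Figure D2:**
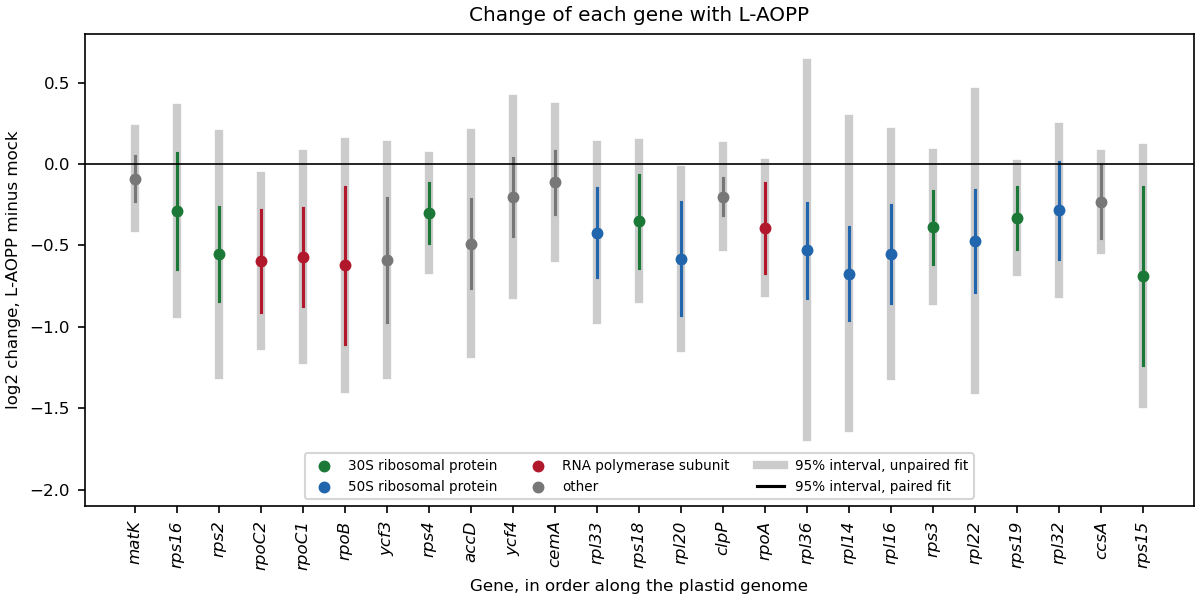
Log2 change of each of the 25 genes with L-AOPP relative to mock (n = 3 arrays a group), in order along the plastid genome, coloured by the gene's role; grey bars are 95% intervals of the unpaired fit and thin bars those of the paired fit. All points lie below 0, between -0.69 and -0.09, and the paired interval leaves out 0 for 20 genes and the unpaired interval for 2.

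Of the 7 genes for 50S (large subunit) ribosomal proteins, all were lower with L-AOPP, with a median of -0.53, and 6 were lower in 3 of 3 pairs. rpl14, for a protein of the large subunit, had signals of 788, 1299.7 and 1084 in mock replicates 1, 2 and 3 and of 438, 914 and 682 with L-AOPP. Both groups were lowest in replicate 1 and highest in replicate 2, and they overlapped because mock replicate 1 lay below L-AOPP replicate 2. Within pairs the log2 differences were -0.85, -0.51 and -0.67, and rpl14 fell by 0.67 (1.60-fold, paired 95% interval -0.96 to -0.39, adjusted p = 0.0465), from 1057 ± 257 to 678 ± 238 (SD, n = 3). The call rests on the pairing, since the unpaired interval was -1.62 to 0.27, and without L-AOPP replicate 1 the unpaired difference was -0.39. rpl33, whose protein tobacco can do without under normal growth, stood at 11572, 12454 and 12952 in mock and at 7842, 9267 and 10693 with L-AOPP. Its groups did not overlap, and the difference was -0.42 (paired adjusted p = 0.157). The other members, rpl20, rpl16, rpl36, rpl22 and rpl32, differed by -0.58, -0.55, -0.53, -0.47 and -0.29, and none of them was called.

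The 7 tested genes for 30S (small subunit) proteins were lower in 3 of 3 pairs, with a median of -0.35. rps15 had the largest difference of all 25 genes: its signals were 703, 535 and 772 in mock and 349, 406 and 489.5 with L-AOPP. All 3 L-AOPP arrays were below all 3 mock arrays, the difference was -0.69 (1.61-fold), and the pairs ranged widely (-1.01, -0.40 and -0.66), and it was not called (paired adjusted p = 0.258). rps4, for a protein that binds the ribosomal RNA early in assembly of the small subunit, went from 9975, 10659 and 9354 in mock to 7661, 8624 and 8008 with L-AOPP. These groups did not overlap either, with a difference of -0.30 (paired adjusted p = 0.137). rps2 differed by -0.55, rps3 by -0.39, rps18 by -0.35, rps19 by -0.33 and rps16 by -0.29, with groups apart for all but rps16.

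The 4 polymerase subunit genes had a median of -0.58 and were the one role in which every gene was lower in 3 of 3 pairs with groups that did not overlap. rpoC2, for the beta'' subunit, had signals of 1439, 1544 and 1531 in mock and 896, 1012 and 1088 with L-AOPP. The mock arrays lay close together and well above the L-AOPP arrays, and the difference was -0.60 (1.51-fold, unpaired interval -1.12 to -0.07, paired adjusted p = 0.0881). rpoB, for the beta subunit, had signals of 132, 145 and 247 in mock and 95.6, 108 and 125 with L-AOPP. Mock replicate 3 was high, and without that array the difference of -0.62 became -0.34. rpoC1 (beta') differed by -0.57 and rpoA (alpha) by -0.39. The genes read mainly by the nucleus-encoded polymerase, accD, rpoB, rpoC1 and rpoC2, had a median of -0.58, and the 7 genes measured from rps19 to rpoA in the S10 operon -0.47. All members of both lists were lower in 3 of 3 pairs, as were 23 of the 25 genes. The first list shares rpoB, rpoC1 and rpoC2 with the polymerase role above and the second shares rpoA, so these medians are not separate results.

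The 7 genes with other tasks differed least, with a median of -0.20 and 6 lower in 3 of 3 pairs. ycf3, for an assembly factor of photosystem I, had signals of 727, 1032 and 891 in mock and 584, 654 and 514 with L-AOPP. Its groups were apart, with a difference of -0.59 (paired adjusted p = 0.163), whereas ycf4, for another photosystem I assembly factor, differed by -0.20. accD, for a subunit of the acetyl-CoA carboxylase that starts fatty acid synthesis, differed by -0.49. clpP, for the proteolytic subunit of the Clp protease, had 10312, 12585 and 12438 in mock and 9171, 10821 and 10734 with L-AOPP. Its pairs were even (-0.17, -0.22 and -0.21), and the difference of -0.20 was not called (paired adjusted p = 0.11). ccsA, which acts in attaching heme to c-type cytochromes, had 11838, 10079.7 and 10358 in mock and 8727, 9099.8 and 9617 with L-AOPP. The highest L-AOPP array was below the lowest mock array, at a difference of -0.23. matK, for the maturase that helps splice group II introns, had 12722, 11643 and 10326 and 12452, 10662 and 9557. Its groups overlapped, its difference of -0.09 was the smallest of the 25, and the paired interval was -0.23 to 0.05. The envelope protein gene cemA differed by -0.11.

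The tested photosynthesis genes of the plastid, measured on the same arrays, lay close to these genes. Their median difference was -0.36, and 38 of 42 were below 0, 24 were lower in 3 of 3 pairs, 13 had L-AOPP arrays all below the mock arrays and 8 were called in the paired fit. Their range, from -0.97 to 0.23, was wider than that of the 25 genes. Their medians by pair were -0.12, -0.39 and -0.49, while those of the 25 genes stayed between -0.46 and -0.40. Whether the groups of genes differ was not tested. Of the nucleus-encoded partners, 0 of 35 listed symbols for plastid transcription and 0 of 31 for plastid RNA processing and ribosomes had a named probe set, so they were not analysed here. That search by name does not show that the array lacks probe sets for these partners.

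**Figure D3:**
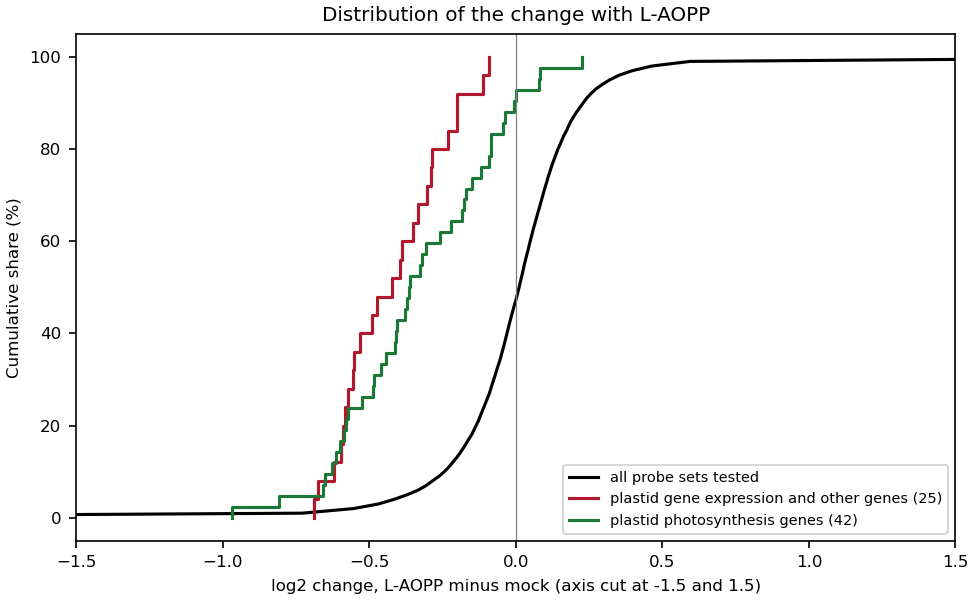
Cumulative share (%) of genes by log2 change with L-AOPP relative to mock, for the 25 plastid gene expression and other genes, the 42 tested plastid photosynthesis genes and all 15922 probe sets tested; the axis is cut at -1.5 and 1.5. The medians are -0.42, -0.36 and 0.01.

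Adding IAA to L-AOPP asks whether the auxin itself moves these transcripts in inhibited plants. This comparison, that of IPyA below and that of L-AOPP with mock share the L-AOPP arrays, so a low or high L-AOPP array enters all of them. With IAA the median difference from L-AOPP was 0.16 (all probe sets tested: -0.01), and 24 of 25 genes were above 0, all but rpoC2, against 46.4% of all probe sets. The pairs did not move together: their medians were -0.07, 0.35 and 0.20, and 8, 24 and 23 genes were above 0. A set of 7 genes (matK, rpoC1, rps4, accD, clpP, rps19 and ccsA) were higher in 3 of 3 pairs, against 17.4% of all probe sets tested. For 0 genes were all IAA arrays above all L-AOPP arrays, against 5.51%. By role, the medians were 0.20 for the 30S genes, 0.12 for the 50S genes, 0.17 for the polymerase genes and 0.17 for the genes with other tasks. Of the 42 photosynthesis genes 40 were above 0, with a median of 0.18, 22 were higher in 3 of 3 pairs and 5 were called in the paired fit.

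The unpaired fit called 0 of the 25 (0.358% of all probe sets called higher), also 0 at an unadjusted p under 0.05 (3.58%). The paired fit called 1 of the 25 genes, clpP, against 2.55% of all probe sets called higher. With 25 genes, 1 call is close to that background, so the count does not set these genes apart. The paired fit gave 4 genes an unadjusted p under 0.05 (8.14%): clpP, rps4, accD and rps19. clpP had signals of 10014, 13004 and 12894 with L-AOPP+IAA, beside the L-AOPP values above. Each was higher than the L-AOPP array of its number (0.13, 0.27 and 0.26), although the groups overlapped. The clpP difference was 0.22 (1.16-fold, paired interval 0.11 to 0.33, adjusted p = 0.0354), at 11971 ± 1696 (SD, n = 3) with L-AOPP+IAA. The unpaired interval was -0.09 to 0.53, and the unpaired difference lay at 0.34 without L-AOPP+IAA replicate 1 and 0.14 without L-AOPP replicate 1. With median centring of each array, with no filter or with no trend, the paired fit did not call clpP. Without replicate 1 the median of the 25 genes was 0.27, and the paired fit called 5: clpP, accD, rpl33, rps18 and rpoA. Over the whole array that fit called 627 probe sets in either direction, against 590 with all 3 replicates.

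The genes that had differed most with L-AOPP were spread out after IAA. rps15 had 309, 658 and 564, rpl14 422, 1194 and 757 and ycf3 438, 1002 and 698. In each of them replicate 1 was under the lowest L-AOPP array and replicate 2 above the highest one. Their mean differences from L-AOPP were 0.24, 0.16 and 0.21, each with an unpaired interval that spans 0, the widest being -0.79 to 1.11 for rpl14. rpoB had 95.3, 164 and 134, a difference of 0.23. rpoC2 had 732, 1196 and 1014, a difference of -0.05, with replicates 1 and 3 below their L-AOPP arrays. Among the other genes, rpl33 had 7642, 13319.9 and 11974, ccsA 8971, 11618 and 10451 and rps4 8616, 12469.8 and 8510.2, each highest in replicate 2. matK had 13936, 10718 and 10337, highest in replicate 1.

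With IPyA in place of IAA, all 25 genes had a higher mean log2 signal than with L-AOPP alone (49.8% of all probe sets), with a median of 0.25 (all probe sets tested: -0.00). The pairs again went apart. Their medians were -0.12, 0.46 and 0.34, and 5, 24 and 24 genes were above 0. The genes higher in 3 of 3 pairs were rps4, clpP, rps3 and ccsA, 4 of 25, a share near the 15.6% of all probe sets. None of the 25 was called, by limma without pairing (0% of all probe sets called higher) or with it (0.157%). At an unadjusted p under 0.05 there were 1 unpaired (rps4, background 1.41%) and 8 paired (rps4, accD, rpl20, clpP, rpl14, rpl16, rps3 and rps19, background 4.96%). Without replicate 1 the median was 0.41 and the paired fit called 2, accD and rpl16. Over the whole array that fit called 75 probe sets in either direction, against 28 with all 3 replicates. By role, the medians over all pairs were 0.26 for the 30S genes, 0.27 for the 50S genes, 0.15 for the polymerase genes and 0.21 for the genes with other tasks. The photosynthesis genes had a median of 0.28, with 40 of 42 above 0. Of these 42, 24 were higher in 3 of 3 pairs and 5 were called in the paired fit, more than among the 25 genes. Whether the 2 sets differ was not tested.

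rps4 was the 1 gene of 25 whose IPyA arrays all lay above the L-AOPP arrays, a share near the 3.01% of all probe sets. Its signals were 9023, 12685 and 9902 with L-AOPP+IPyA, replicate 2 being the highest, and the difference was 0.37 (1.29-fold, paired interval 0.18 to 0.55, adjusted p = 0.167). clpP had 10432, 13642 and 12518, a difference of 0.25 with even pairs (0.19, 0.33 and 0.22) and an adjusted p of 0.119 in the paired fit. rps15 ran from the lowest to the highest of its 12 arrays within this group, at 293, 839.5 and 596, with a difference of 0.36 and pairs of -0.25, 1.05 and 0.28. ycf3 had 536, 1219 and 611 and rpl14 436, 1241 and 921, with differences of 0.34 and 0.29. For rpoC2 the signals were 735, 1450 and 1376 and for rpoB 63, 156 and 138, low in replicate 1, with differences of 0.19 and 0.02. rpl33 had 7459.6, 13000.3 and 14079, ccsA 8955, 12486 and 10666 and matK 12406, 10898 and 11225, at differences of 0.27, 0.21 and 0.09.

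**Figure D4:**
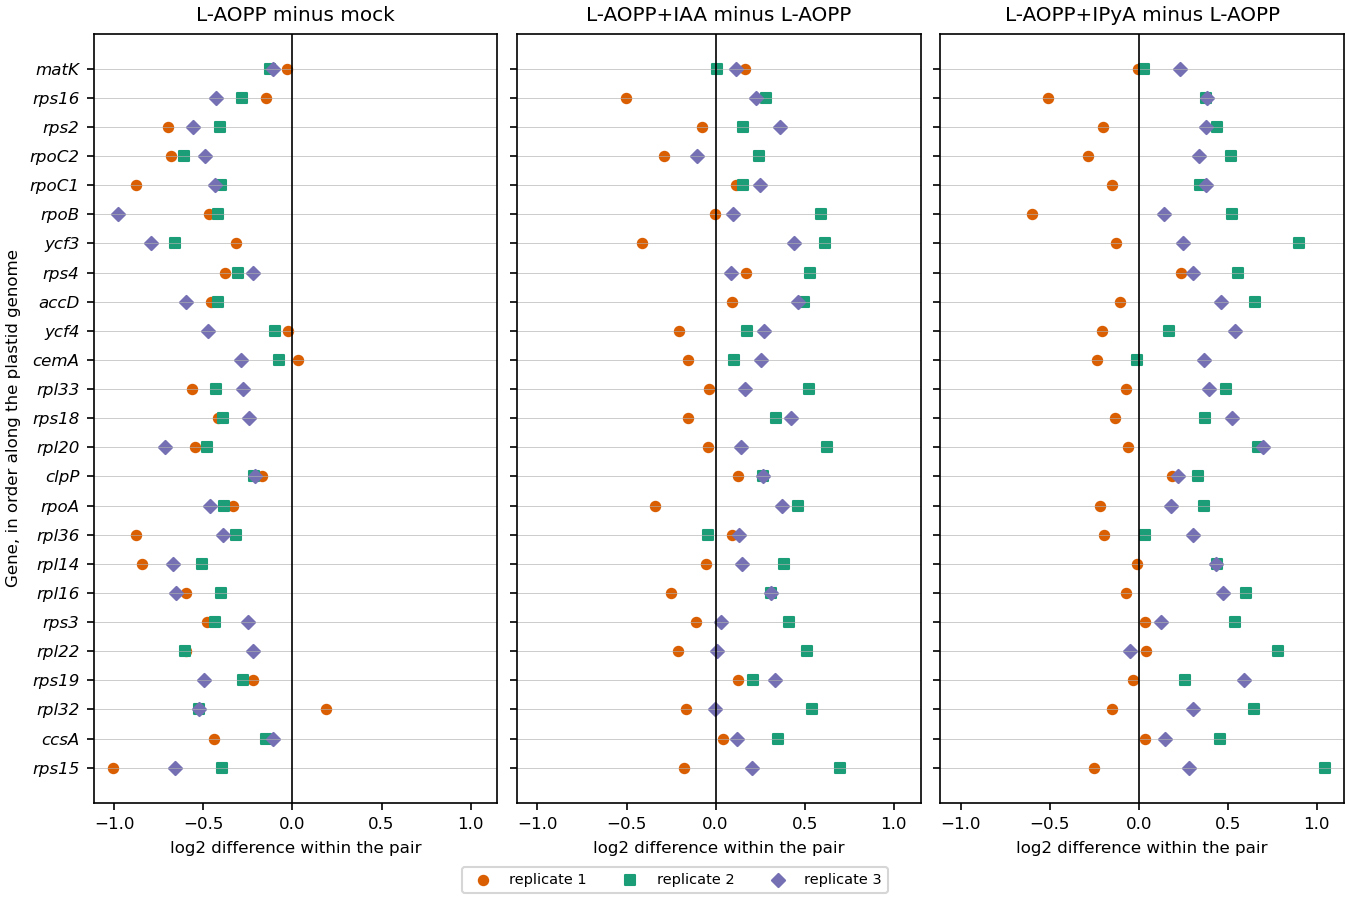
Log2 difference within each replicate pair for the 25 genes: L-AOPP minus mock (left), L-AOPP+IAA minus L-AOPP (middle) and L-AOPP+IPyA minus L-AOPP (right). On the left all points but those of cemA and rpl32 in pair 1 are below 0; in the middle and on the right most points of replicate 1 are below 0 (17 and 20 of 25) and most points of replicates 2 and 3 above it.

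The groups given IAA or IPyA after L-AOPP were also set against mock, whose arrays are shared with the comparison of L-AOPP and mock. With L-AOPP+IAA the median was -0.28, with 23 genes below 0 (52.0% of all probe sets) and pair medians of -0.59, -0.00 and -0.20. 11 genes were lower in 3 of 3 pairs (18.0%), and for rpoC2 and rpoC1 all IAA arrays were below all mock arrays (3.47%). The unpaired fit called 0 (0.0314% of all probe sets called lower), with rpoC2 alone at an unadjusted p under 0.05 (1.71%). Paired, 8 genes were lower at that level (5.81%). The paired fit called rpoC2 alone (0.471%): its difference from mock was -0.65 (1.57-fold, paired interval -0.96 to -0.33, adjusted p = 0.0428), at 980.4 ± 234 against 1505 ± 57.1 (SD, n = 3). clpP differed from mock by 0.02 (paired interval -0.09 to 0.13), and rpl14 by -0.51 (adjusted p = 0.0839).

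With L-AOPP+IPyA the median against mock was -0.16, with 23 genes below 0 (48.5% of all probe sets), all but rps4 and clpP. Pair medians were -0.55, 0.09 and -0.08, and rpoC2, rpoC1, rpoA, rpl36 and rpl14 were lower in 3 of 3 pairs, 5 of 25 against 11.4%. None was called in either fit, nor was any probe set of the array (0%), and for 0 genes were the groups apart (1.84%). At an unadjusted p under 0.05 there were 0 unpaired (0.452% lower) and 7 paired (2.74%). Without replicate 1 the median against mock was -0.12 with IAA and 0.01 with IPyA. IPyA and IAA were set side by side at unequal doses, one of them unsettled, so no comparison of potency is possible. Their median difference was 0.06 (IPyA minus IAA), 19 genes were above 0 (54.7% of all probe sets), 7 were higher in 3 of 3 pairs (16.8%), and 0 were called in either fit (0.0377% and 0.402% of all probe sets called higher) or reached an unadjusted p under 0.05 (1.53% and 4.75%), and for 0 were the groups apart (3.13%). For rps15, the gene with the largest L-AOPP difference, the unpaired interval of the difference was -0.67 to 0.90 and the paired one -0.43 to 0.66. For clpP the unpaired interval was -0.28 to 0.34 and the paired one -0.08 to 0.14.

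The median deviation of the 25 genes from their overall means gave 1 value per array. It was 0.07, 0.30 and 0.27 in mock and -0.34, -0.12 and -0.20 with L-AOPP, so these groups did not overlap. It was -0.46, 0.31 and 0.00 with L-AOPP+IAA, and -0.47, 0.39 and 0.18 with L-AOPP+IPyA. In these groups replicate 1 was below all L-AOPP arrays, and replicate 2 was above all mock arrays. The ubiquitin 3'/5' ratio was highest in replicate 1 of every group, at 2.28 in mock, 2.33 with L-AOPP, 2.48 with L-AOPP+IAA and 2.70 with L-AOPP+IPyA, the replicate in which the median deviation of the 25 genes was lowest. The GAPDH ratio was lowest in replicate 3 of every group, at 1.12 to 1.23, and the actin ratio was lowest in replicate 1 in all groups but L-AOPP+IPyA. Leaving out L-AOPP+IAA replicate 2 moved the median difference from L-AOPP to 0.00, with 13 of 25 genes above 0, and leaving out L-AOPP+IPyA replicate 2 moved it to 0.02, with 16 above 0.

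**Figure D5:**
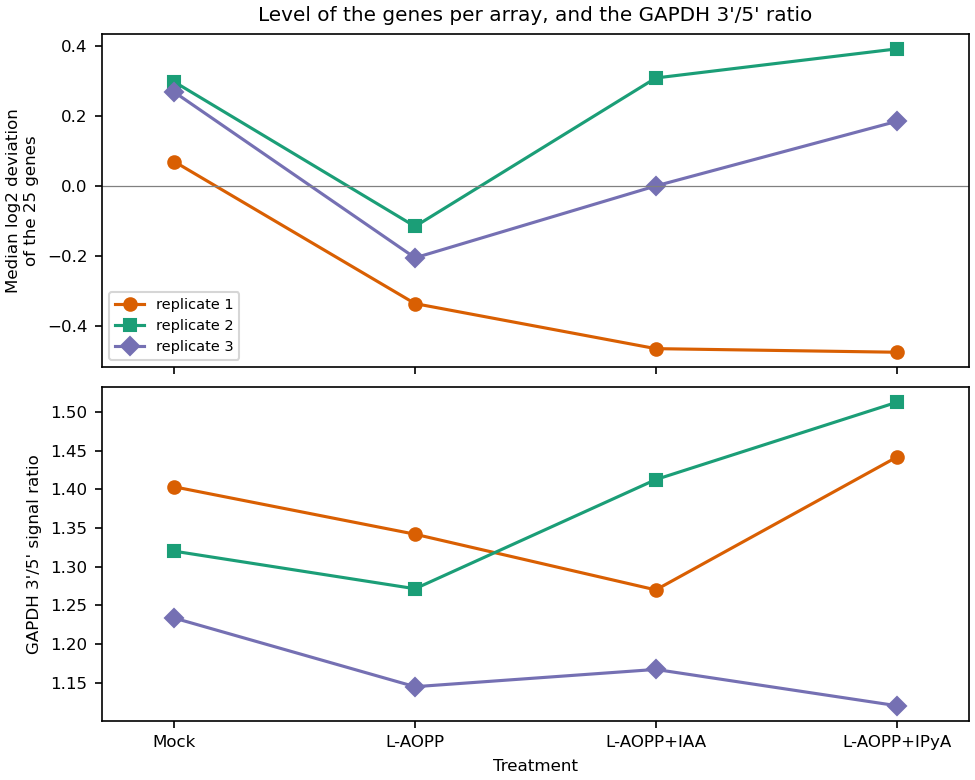
Top, median log2 deviation of the 25 genes from their mean over the 12 arrays, for each array by treatment and replicate; bottom, GAPDH 3'/5' signal ratio of the same arrays. Lines join arrays of 1 replicate number. The L-AOPP arrays lie at -0.34 to -0.12, all below the mock arrays at 0.07 to 0.30, and replicate 1 stays at -0.46 and -0.47 with IAA and IPyA while replicates 2 and 3 lie at 0.00 to 0.39.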

How the data were processed

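Whole-plant RNA of 12 samples (4 groups of 3) was measured on 1-colour arrays of biotin-labelled cRNA, per the labels' protocols. Per the submitters' processing notes, the authors used MAS5 (version not given in the sources used here), and each deposited value is a probe set's intensity on a linear scale. The mean of every array without the lowest and highest 2% of probe sets is 500.0 in the deposited intensities, so they were scaled to 1 level, and a difference is relative to the other transcripts of the array. Deposited intensities under 0.05 were raised to 0.05 and put on the log2 scale, and all 12 arrays entered 1 limma fit (version 3.58.1, R 4.3.3) with eBayes and an intensity trend, from which 6 two-sided comparisons were taken. The 64 control probe sets and 6824 dim ones (mean log2 signal not above the 30th percentile, which is 47.4 as a signal) were left out, and 15922 were tested. A gene was called at a Benjamini-Hochberg adjusted p under 0.05 over all of these.

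Pairing was taken from the data. Titles in every group carry replicate numbers 1 to 3, and the 18 correlations of deviations between arrays of the same number were 0.501 to 0.685, against -0.582 to 0.123 for 36 pairs of different number. The unpaired fit is the reference, and the paired fit adds the replicate number as a block. Genes were named through the platform annotation and the plastid locus tags of the reference gene table. Apart from the marker sums and the choice of genes by mean signal, signals of different probe sets are not compared with each other. Values per array are given for genes called in any fit, the 5 with the largest L-AOPP difference and the 5 with the highest mean signal. The members and lists were chosen with earlier results of these data known. A search for mitochondrion-encoded genes by locus tags beginning with ArthMp matched 0 probe sets, so that list was not used. This does not show that the array lacks such genes. The fits were also run on simulated data, with planted changes larger than those of these genes. That run cannot show how the fits do at changes of this size, and its outcome is not given here. The alternatives tried are given at the end.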

Additional observations from a re-analysis of the deposited data

How the results depend on the processing

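The unpaired count of called genes was 0 in all 6 comparisons, and stayed 0 with no trend, no filter, quantile normalization, median centring, a floor of 16, only the compared groups, and with any 1 array left out. With L-AOPP against mock, the replicate block gave 1 call (rpl14), 2 with quantile normalization (clpP, rpl14), 1 with median centring, 0 with no filter or no trend, and 0 to 9 without 1 replicate number. With IAA against L-AOPP it gave 1 (clpP), 1 with quantile normalization, 0 with median centring, no filter or no trend, and 0 to 5 without 1 number. With IPyA against L-AOPP it gave 0, and 0 to 2 without 1 number. With IAA against mock it gave 1 (rpoC2), 1 with quantile normalization or median centring, 0 with no filter or no trend, and 0 to 1 without 1 number. The block changed no other call of these genes. Over the whole array, the block without 1 number called 0 to 329 probe sets with L-AOPP against mock. These ranges were 119 to 627 with IAA against L-AOPP, 0 to 75 with IPyA against L-AOPP and 121 to 168 with IAA against mock. The counts above or below 0 and the changes of named genes were added to the alternatives after seeing the data.

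Leaving out 1 array, the median with L-AOPP ranged from -0.47 to -0.33 and 23 to 25 genes were below 0. The median with IAA ranged from 0.00 to 0.40 with 13 to 24 above 0, and that with IPyA from 0.02 to 0.50 with 16 to 25. Against mock the median ranged from -0.40 to -0.06 with IAA and from -0.33 to 0.10 with IPyA. Signs were followed gene by gene for the 10 named genes alone, and more of the 25 turned, as these counts show. Of the 10, matK turned with L-AOPP (-0.19 to 4.97e-05). With IAA against L-AOPP the sign turned for rpl14 (-0.20 to 0.55), rpoC2 (-0.21 to 0.15, and -0.20 to 0.070 in the block), ycf3 (-0.071 to 0.53) and matK (-0.041 to 0.20). With IPyA against L-AOPP the named genes that turned were rpl14 (-0.034 to 0.72), rpoB (-0.23 to 0.43, and -0.23 to 0.33 in the block, -0.038 there without replicate 3), ycf3 (-0.023 to 0.57) and matK (-0.0038 to 0.19). The cause was not tested. No gene had another probe set of its own, so that alternative gave no value. No detection calls were used, so signal over background is known only through the filter.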
